A study of Mus musculus with 134 samples.

Results

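The expression of 7 genes, Mid1, G530011O06Rik, Csrnp3, Zfp36l3, Xlr4a, Gm21283 and 2310043M15Rik, was followed through all expression libraries of the series. They are 7 of the 25209 genes in the count files, and they were chosen by name because their levels were known to differ between groups of libraries. Their levels between those groups are therefore given as a description and were not tested, and tests were run only on contrasts within a group of libraries.

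The series examined SET-seq, a method that reads histone marks from the nuclei and expression from the cytoplasmic RNA of the same mouse embryonic stem cells, and the division of such cells next to beads coated with Wnt3a. In the labels every library comes from E14 cells of strain 129/Ola, and the labels name no second cell stock. The bulk libraries were 54, with 2 for each of 27 conditions. Of these, 28 were in vitro libraries, in which cDNA hybrids made from purified total RNA with an oligo-dT primer were cut by the Tn5 transposase while temperature, time, RNA amount or Tn5 amount was varied. A further 20 were SET-seq libraries from untreated cells, 8 labelled by cell number alone and 12 labelled with an H3K4me3 or H3K27me3 antibody. The remaining bulk libraries were 2 ligation-based and 4 Aebp2 KO libraries. The ligation-based libraries came from untreated cells and were made from poly-A RNA with random primers. The Aebp2 KO libraries were made by SET-seq, and their labels name H3K27me3 and Aebp2 KO1 or Aebp2 KO2. The treatment is given as untreated, and they came from clones edited with different sgRNAs. Each KO label is 1 clone, so clone and sgRNA cannot be told apart. The single-cell data were 16 experiments on cells kept with Wnt3a-coated beads for 12 h, 10 labelled H3K27me3 and 6 labelled H3K4me3.

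Mid1 encodes midline 1, an E3 ubiquitin ligase bound to microtubules, and in the house mouse the gene crosses the boundary between the pseudoautosomal region and the rest of the X chromosome. Csrnp3 encodes a cysteine- and serine-rich nuclear protein. Zfp36l3 encodes a zinc finger protein of the tristetraprolin family, which binds AU-rich mRNA and is known from the mouse placenta, and Xlr4a belongs to the X-linked lymphocyte-regulated family, some of whose members are imprinted in the mouse. G530011O06Rik, Gm21283 and 2310043M15Rik are named only by clone or prediction, and no role is given for them here.

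Mid1 lay on the plus strand of chromosome X (mm9, chrX:166123131-166428729), with 13 exon blocks and 4270 exonic bases. G530011O06Rik lay within the span of Mid1 on the opposite strand (chrX:166412975-166416849), with 2 exon blocks and 2380 exonic bases, none of them shared with a Mid1 exon. Zfp36l3 (chrX:51075863-51079571) and Xlr4a (chrX:70319684-70327846) were the other X-linked genes, so 4 of the 7 genes lay on that chromosome. Csrnp3 lay on chromosome 2 (chr2:65683824-65869603), Gm21283 inside the span of Hydin on chromosome 8 (chr8:113019266-113026256), and 2310043M15Rik on chromosome 16 (chr16:93792381-93795146). Of the 1580 exonic bases of 2310043M15Rik, 145 are shared with an exon of Dop1b on the other strand, and reads there cannot be assigned to one gene without strand. Counts were made without strand, so unspliced Mid1 reads could also count for G530011O06Rik and unspliced Hydin reads for Gm21283. This was not tested, so G530011O06Rik and Mid1 may not be independent measurements.

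The reads of Xlr4a are less certain than those of the others. Of its 1191 exonic bases, 844 (70.9%) matched another place in the genome over at least 100 bases with at least 98% identity, at Xlr3b, Xlr3c, Xlr4b and Xlr4c. G530011O06Rik had 105 such bases (4.41%), on chromosome 6, and the other 5 genes had 0. The file headers show no option to count reads with several placements, so counts of Xlr4a may rest on the bases it does not share or be mixed with its family.

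The sequence around the annotated start is shown for the pair of genes whose levels separated the in vitro from the SET-seq libraries, Mid1 and Xlr4a, for G530011O06Rik, which shares the Mid1 locus, and for 2310043M15Rik, the only one of the 7 with the letters CACGTG. Each window holds 250 bases before the start and 50 from it, 5′ to 3′ on the gene's strand, read from the mm9 genome at chrX:166122881-166123180 (plus strand), chrX:70327797-70328096, chrX:166416800-166417099 and chr16:93795097-93795396 (all minus strand). Capitals mark CG dinucleotides.
Mid1: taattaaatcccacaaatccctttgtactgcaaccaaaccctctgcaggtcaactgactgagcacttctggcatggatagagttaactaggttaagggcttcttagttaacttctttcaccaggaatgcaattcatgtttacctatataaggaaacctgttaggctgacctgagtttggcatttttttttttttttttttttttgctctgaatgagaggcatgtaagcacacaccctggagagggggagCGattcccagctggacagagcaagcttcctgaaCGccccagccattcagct
Xlr4a: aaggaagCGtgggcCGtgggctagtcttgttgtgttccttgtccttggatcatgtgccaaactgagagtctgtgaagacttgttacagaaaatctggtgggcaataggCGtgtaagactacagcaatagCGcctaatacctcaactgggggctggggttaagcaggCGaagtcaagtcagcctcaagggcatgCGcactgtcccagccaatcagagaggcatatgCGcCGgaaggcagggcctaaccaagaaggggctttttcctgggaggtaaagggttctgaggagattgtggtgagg
G530011O06Rik: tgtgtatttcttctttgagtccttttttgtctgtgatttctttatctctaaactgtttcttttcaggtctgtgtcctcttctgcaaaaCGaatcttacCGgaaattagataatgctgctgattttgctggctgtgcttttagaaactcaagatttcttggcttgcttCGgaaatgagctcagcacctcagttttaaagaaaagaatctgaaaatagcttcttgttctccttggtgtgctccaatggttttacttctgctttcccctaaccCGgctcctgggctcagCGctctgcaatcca
2310043M15Rik: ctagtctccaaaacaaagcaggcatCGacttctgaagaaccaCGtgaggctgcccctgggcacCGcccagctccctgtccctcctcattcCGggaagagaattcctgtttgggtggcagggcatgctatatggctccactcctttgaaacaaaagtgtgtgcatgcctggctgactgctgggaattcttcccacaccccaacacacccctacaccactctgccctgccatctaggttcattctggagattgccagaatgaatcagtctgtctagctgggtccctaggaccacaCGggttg

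Of CG dinucleotides Mid1 held 2, Gm21283 3, G530011O06Rik, Csrnp3 and 2310043M15Rik 5 each, Xlr4a 8 and Zfp36l3 9, while the median over 25040 gene starts was 11. All 7 genes were under that median, with Zfp36l3 and Xlr4a nearest to it (44.1% and 41.3% of starts held fewer). The letters TATAAA, searched on both strands, occurred in 0 of the 7 windows and in 13.2% of all starts, and CACGTG, which is its own reverse complement and overlaps the other motif nowhere, occurred in 1 of the 7 and in 7.78% of all starts.

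Counts outside Rn45s, the ribosomal RNA precursor, ran from 188275 to 16888686 per library with a median of 3569340. Rn45s itself took 1.54% to 84.6% of a library's counts and was left out of the totals. Levels are given as CPM, counts scaled to these totals, and 1 CPM is a few counts in the median library. All 8 embryonic stem cell markers, Pou5f1 among them, had a median above 0 in each of the 4 kinds of library, and their summed level was 3969 to 8699 CPM in vitro, 3805 to 6173 CPM in SET-seq, 6682 and 6765 CPM in the ligation-based libraries and 3697 to 4279 CPM in the Aebp2 KO libraries. Single markers differed between these groups, with Klf4 at 432 to 2018 CPM in vitro and 53.4 to 78.5 CPM in Aebp2 KO, Nanog at a median of 273 CPM in vitro and 1171 CPM in SET-seq, and Dppa5a at 158 and 167 CPM in the ligation-based libraries and at 1211 CPM or more in the others. One feature set libraries apart before any of the 7 genes was read. Hprt, the purine salvage enzyme that the ES-E14TG2a line named in the study's methods is known to lack, was at 66.2 to 485 CPM in the 20 SET-seq libraries and at 184 and 181 CPM in the ligation-based ones, and at 0 to 1.29 CPM in the 28 in vitro libraries and 0 to 2.14 CPM in the 4 Aebp2 KO libraries. Among the 7 genes, Mid1 and Xlr4a separated the same groups. Aebp2, the PRC2 cofactor targeted in the KO clones, was at 15.7 and 15.0 CPM in KO1 and at 49.7 and 30.2 CPM in KO2, against 0 to 76.0 CPM in SET-seq, where the 0 came from the shallowest library and the next lowest was 29.4 CPM. The level of Aebp2 thus did not set the libraries labelled KO2 apart, and the edited position was not used here. How the groups were made also differed, in RNA source, primer and protocol, so cell source and protocol cannot be told apart between groups. The SET-seq and the Aebp2 KO libraries were both made by SET-seq, but they differed in Aebp2 genotype and in coming from edited clones. Rn45s took 12.6% to 34.2% of counts in SET-seq and 48.8% to 56.7% in Aebp2 KO. Genotype, clone and cell source thus cannot be told apart between them.

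**Figure D1:**
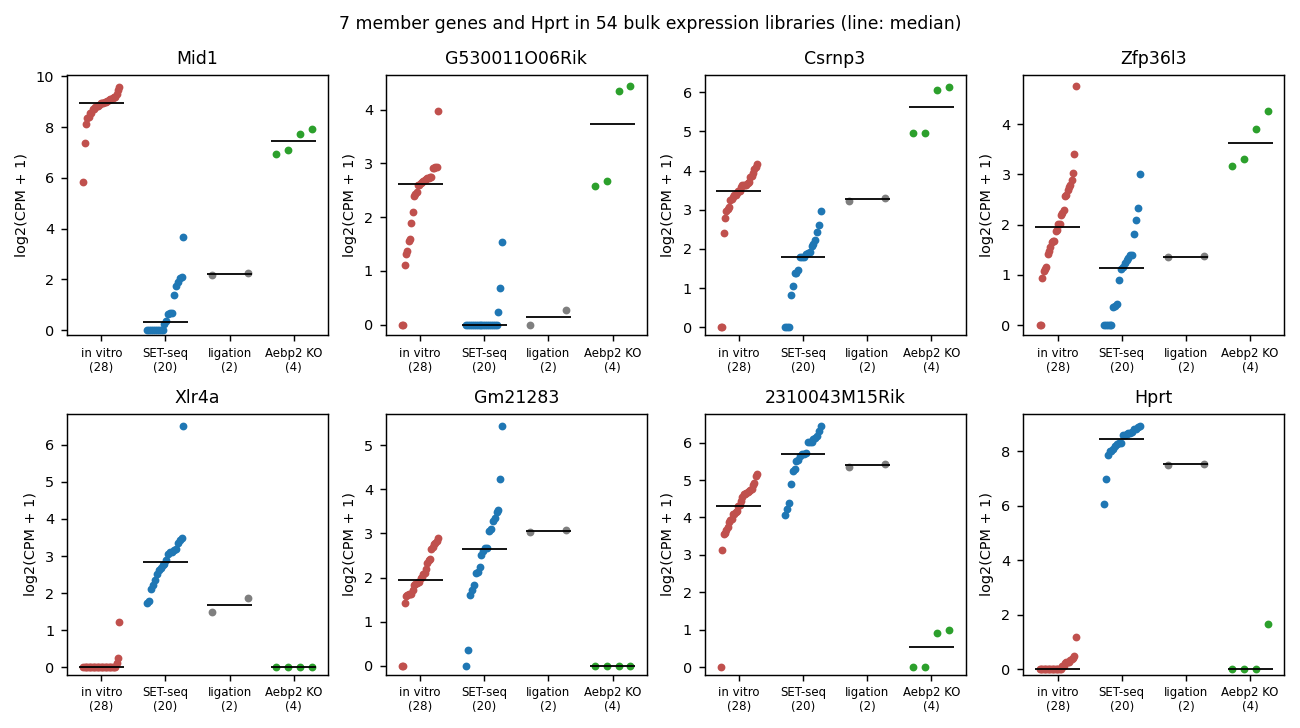
Level of each of the 7 genes and of Hprt in every bulk library as log2(CPM + 1), grouped as in vitro (28 libraries), SET-seq (20), ligation-based (2) and Aebp2 KO (4). Each point is 1 library and each line the median of its group. Mid1 separates the in vitro and Aebp2 KO libraries (55.7 to 772 CPM) from the SET-seq and ligation-based ones (0 to 11.6 CPM), and Xlr4a and Hprt run the other way.

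Among the genes higher in the in vitro and Aebp2 KO libraries, Mid1, the ubiquitin ligase, showed the widest separation. In the in vitro libraries it had a lowest level of 55.7 CPM, a median of 498 CPM and a highest level of 772 CPM. In the SET-seq libraries its lowest level was 0, its median 0.243 CPM and its highest 11.6 CPM, and 9 of the 20 libraries held no Mid1 count. No SET-seq library reached the lowest in vitro library. With all counts of a group pooled, Mid1 was 361-fold higher in vitro than in SET-seq (95% interval 295 to 447, exact for counting error only). Such intervals, here and for the genes that follow, leave out the spread between libraries.

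For Mid1 the Aebp2 KO libraries lay above the SET-seq libraries and below most in vitro libraries. KO1 gave 240 and 212 CPM and KO2 gave 136 and 122 CPM, all above the highest SET-seq library. Their pooled level was 137-fold that of SET-seq (111 to 172). They were inside the in vitro range only through its libraries of 30 pg RNA (167 and 55.7 CPM). The next lowest in vitro library gave 280 CPM. Pooled, Mid1 was 2.63-fold higher in vitro than in Aebp2 KO (2.44 to 2.83). The ligation-based libraries gave 3.48 and 3.74 CPM, inside the SET-seq range and below every in vitro library. In bulk libraries fewer expressing cells and less RNA per cell cannot be told apart.

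G530011O06Rik, the gene within the Mid1 span, had its highest median in Aebp2 KO rather than in vitro. Its in vitro levels ran from 0 through a median of 5.12 CPM to 14.8 CPM, while 17 of the 20 SET-seq libraries were at 0 and the highest gave 1.89 CPM. The KO1 libraries gave 20.6 and 19.2 CPM and the KO2 libraries 4.97 and 5.34 CPM, all above every SET-seq library. The ligation-based libraries gave 0.213 CPM and 0. Pooled, its level was 30.1-fold higher in vitro (16.3 to 63.0) and 90.0-fold higher in Aebp2 KO (45.1 to 199) than in SET-seq, where it rested on 10 counts.

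Csrnp3, the nuclear protein gene, was highest in the Aebp2 KO libraries. KO1 gave 65.7 and 69.5 CPM and KO2 gave 29.8 and 30.2 CPM, above every in vitro library (0 to 16.8 CPM, median 10.2) and every SET-seq library (0 to 6.77 CPM, median 2.46). The ligation-based libraries gave 8.89 and 8.34 CPM, within the in vitro range and above every SET-seq library. The pooled level in Aebp2 KO was 5.35-fold that in vitro (4.59 to 6.21) and 20.3-fold that in SET-seq (16.4 to 25.0). Between in vitro and SET-seq the single libraries overlapped, with a pooled ratio of 3.79 (3.24 to 4.46).

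Zfp36l3, the RNA-binding protein gene, varied widely among libraries of one kind. It was at 0 to 25.9 CPM in vitro, with a median of 2.87 CPM, and at 0 to 7.04 CPM in SET-seq, with a median of 1.20 CPM, so these groups overlapped. The Aebp2 KO libraries gave 8.83 and 18.2 CPM in KO1 and 13.9 and 8.01 CPM in KO2, just above the highest SET-seq library, and the ligation-based libraries gave 1.56 and 1.58 CPM. The highest in vitro value came from a 30 pg RNA library and its partner was at 0. Its pooled level in Aebp2 KO was 6.89-fold that in SET-seq (4.85 to 9.64).

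Of the genes higher in SET-seq and ligation-based libraries, Xlr4a was nearly without counts elsewhere. All 20 SET-seq libraries held it, from 2.31 CPM through a median of 6.19 CPM to 90.3 CPM, the last in a library of 10 cells with the fewest counts of all. The ligation-based libraries gave 2.63 and 1.80 CPM. In vitro, 25 of 28 libraries were at 0 and the highest was at 1.33 CPM, below the lowest SET-seq library, with 3 counts in all. All 4 Aebp2 KO libraries were at 0, which over their summed counts allows up to 0.735 CPM.

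The pooled ratio of Xlr4a in SET-seq to in vitro was 350 with a wide interval (119 to 1703), since the in vitro side rested on 3 counts. Against the Aebp2 KO libraries SET-seq was at least 8.62-fold higher, with the floor of 3 counts set over the group. By median, the family around Xlr4a was also higher in SET-seq than in vitro or in Aebp2 KO, but low in the ligation-based libraries. Of 8 further Xlr genes, 7 had a median above 0 in SET-seq, led by Xlr3a at 24.9 CPM (0 to 35.2), which lies 3.79 kb from Xlr4a, Xlr3b at 11.9 CPM and Xlr3c at 6.21 CPM. In vitro only Xlr3a and Xlr3b had a median above 0, at 0.164 and 0.612 CPM, and in the Aebp2 KO libraries only Xlr4c did, at 0.445 CPM. In the ligation-based libraries the 8 genes summed to 5.55 and 5.68 CPM, against a median of 52.1 CPM in SET-seq, and Xlr3b was at 0.216 and 0.498 CPM, below its in vitro median. The sums ran from 0 to 86.9 CPM in SET-seq, 0 to 34.0 CPM in vitro and 0.890 to 4.91 CPM in Aebp2 KO. Their ranges thus overlapped. Since Xlr3b, Xlr3c, Xlr4b and Xlr4c share sequence with Xlr4a, these are not independent measurements. Pnma5, the measured neighbour on the other side, was at a median of 28.7 CPM in SET-seq, 11 CPM in vitro and 5.43 CPM in Aebp2 KO.

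Gm21283 was absent from the Aebp2 KO counts and present elsewhere. It was at 0 in all 4 Aebp2 KO libraries, at 0 to 6.43 CPM in vitro (median 2.86), at 0 to 42.5 CPM in SET-seq (median 5.22) and at 7.18 and 7.48 CPM in the ligation-based libraries. The in vitro and SET-seq ranges overlapped. Pooled, SET-seq was 1.66-fold above in vitro (1.45 to 1.90) and at least 7.0-fold above Aebp2 KO. Hydin, in whose span the gene lies, had medians of 6.65, 4.65 and 12.2 CPM in the in vitro, SET-seq and Aebp2 KO libraries.

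2310043M15Rik was likewise lowest in Aebp2 KO, and its median was highest in SET-seq. Its SET-seq libraries ran from 15.9 CPM through a median of 50.8 CPM to 86.2 CPM, the ligation-based libraries gave 40.0 and 41.9 CPM, and the in vitro libraries ran from 0 through 18.9 CPM to 35.1 CPM. The Aebp2 KO libraries gave 0.981 CPM and 0 in KO1 and 0 and 0.890 CPM in KO2, 2 counts in all. They lay below every SET-seq library, and the pooled ratio of SET-seq to Aebp2 KO was 90.8 with a wide interval (25.1 to 750). Between SET-seq and in vitro the ratio was 1.90 (1.81 to 1.99), and the ranges overlapped. Dop1b, which shares exonic bases with it, had medians of 46.1 CPM in vitro, 21.7 CPM in SET-seq and 34.6 CPM in Aebp2 KO.

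Counted gene by gene, 6 of the 7 did not overlap between Aebp2 KO and SET-seq. Mid1, G530011O06Rik, Csrnp3 and Zfp36l3 were higher in Aebp2 KO, Xlr4a and 2310043M15Rik were lower, and Gm21283 overlapped. Of 15552 genes with at least 50 counts, 10.5% did not overlap in that comparison (6.13% higher and 4.33% lower in Aebp2 KO). Between SET-seq and in vitro 2 of the 7 did not overlap, Xlr4a higher and Mid1 lower, beside 1.79% of all genes (0.694% higher and 1.09% lower in SET-seq). Nothing is read from these counts, because levels between these groups chose the genes.

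The pairs with fewer libraries gave larger backgrounds. Between the ligation-based and in vitro libraries 4 of the 7 did not overlap (26.2% of all genes), with Xlr4a, Gm21283 and 2310043M15Rik higher and Mid1 lower, and with TMM scaling of the CPM this count was 2. Csrnp3 alone was higher in ligation-based than in SET-seq libraries (26.4% of all genes) and in Aebp2 KO than in vitro (9.44%). Between ligation-based and Aebp2 KO libraries none of the 7 overlapped, in a comparison where 51.5% of all genes did not.

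Per kilobase of exon the order of the genes differed between the groups. In vitro the median levels in RPKM were 117 for Mid1, 11.9 for 2310043M15Rik, 4.96 for Gm21283, 2.15 for G530011O06Rik, 1.10 for Zfp36l3, 0.923 for Csrnp3 and 0 for Xlr4a. In SET-seq 2310043M15Rik led with 32.1 RPKM, followed by Gm21283 with 9.07, Xlr4a with 5.20, Zfp36l3 with 0.459, Csrnp3 with 0.224, Mid1 with 0.0568 and G530011O06Rik with 0. In Aebp2 KO Mid1 led with 40.7 RPKM, and G530011O06Rik (5.17), Csrnp3 (4.36) and Zfp36l3 (4.35) lay close together, closer than their own libraries spread. Mid1 thus moved from first in 2 groups to next to last in SET-seq.

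Across the means of the 27 bulk conditions the genes fell into opposed directions. Pearson's r of log2(CPM + 1) was 0.85 between Mid1 and G530011O06Rik, 0.88 between G530011O06Rik and Csrnp3 and 0.66 between Mid1 and Csrnp3. It was -0.86 between Mid1 and Xlr4a, 0.71 between Gm21283 and 2310043M15Rik and 0.62 between Xlr4a and Gm21283. The 27 points share their kind of library, protocol and RNA source, and the levels that chose the genes enter them, so no test was made. Within one kind of library some relations had the same sign and others did not. Between Mid1 and G530011O06Rik r was 0.59 over the 28 in vitro and 0.76 over the 20 SET-seq libraries, and between G530011O06Rik and Csrnp3 it was 0.80 and 0.40. Spearman's rank correlation was 0.05 in vitro and 0.60 in SET-seq for the first pair, and 0.61 and 0.32 for the second. The first relation was thus nearly absent by rank in vitro. In SET-seq, 17 of the 20 libraries held no G530011O06Rik count. Over the 16 in vitro libraries of the temperature series alone r was -0.60 between Mid1 and G530011O06Rik, 0.04 between G530011O06Rik and Csrnp3, and -0.58 between Gm21283 and 2310043M15Rik. Over the 20 SET-seq libraries r between Mid1 and Xlr4a was -0.03 and between Gm21283 and 2310043M15Rik 0.30.

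**Figure D2:**
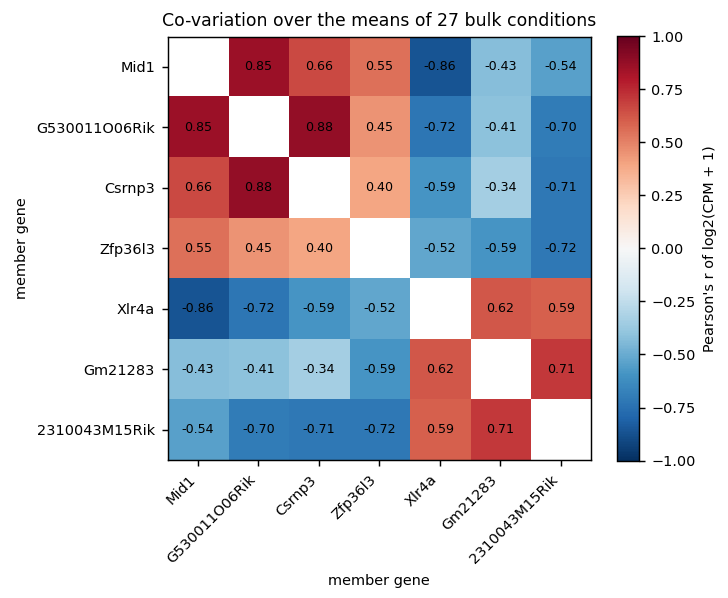
Pearson's r of log2(CPM + 1) between the 7 genes over the means of 27 bulk conditions, from -1 (blue) to 1 (red). Mid1, G530011O06Rik, Csrnp3 and Zfp36l3 correlate positively with each other (0.40 to 0.88) and negatively with Xlr4a, Gm21283 and 2310043M15Rik (-0.34 to -0.86).

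The genes whose level most resembled each of the 7 over the 27 means, among genes with at least 50 counts, were partly known enzymes. For Mid1 they were Pfkp, a glycolytic phosphofructokinase (r 0.960), Pgm1, a phosphoglucomutase (0.958), and Pygl, the liver glycogen phosphorylase (0.955). For G530011O06Rik they were Sdr9c7 (0.944), Setbp1 (0.914) and Nav1 (0.904), and for Csrnp3 they were Crebbp, a histone acetyltransferase (0.905), Tshz3 (0.903) and Arhgef26 (0.888). Zfp36l3 was nearest to Sox3, an X-linked transcription factor (0.803), Upf1 of nonsense-mediated decay (0.796) and Ddx24 (0.785). Xlr4a was nearest to Ube2f (0.955), Efhc2 (0.934) and Saa3 (0.931), Gm21283 to Serpinb6c (0.847), Irak1bp1 (0.808) and Mrps7 (0.807), and 2310043M15Rik to the secreted protein gene Spp1 (0.926) and Cltb (0.921). With Spearman's correlation the sets of 3 nearest genes shared from 0 to 2 genes with these.

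Within the in vitro libraries the amount of RNA went with the lowest values. At 300 ng of RNA Mid1 was at 567 and 555 CPM, at 3 ng at 280 and 327 CPM and at 30 pg at 167 and 55.7 CPM. The 30 pg libraries held no count of G530011O06Rik, Csrnp3, Xlr4a or Gm21283. They had 2743951 and 323449 counts outside Rn45s, so 3 counts are 1.09 and 9.28 CPM there. Rn45s took 18.2% and 17.4% of counts at 300 ng, 78.5% and 84.6% at 3 ng and 64.7% and 68.1% at 30 pg. The part of depth and of Rn45s in these levels was not tested. Csrnp3 was at 10.9 and 8.60 CPM at 300 ng and at 16.8 and 15.4 CPM at 3 ng, so it did not follow the order of Mid1. In the series of 25, 50 and 100 ng per μl Tn5, the libraries numbered 1 gave 583, 628 and 500 CPM of Mid1 and those numbered 2 gave 373, 378 and 338 CPM, a wider gap than between the amounts of Tn5. Csrnp3 and Gm21283 were likewise higher in all 3 libraries numbered 1, and 2310043M15Rik was lower in all 3.

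Tagmentation at 16 °C and 37 °C was compared over times of 5 to 30 min. Csrnp3 and Gm21283 were higher at 37 °C, and 2310043M15Rik was lower. Csrnp3 ran from 4.35 through a median of 9.39 to 11.4 CPM in the 8 libraries at 16 °C and from 11.3 through 12.6 to 16.1 CPM in the 8 at 37 °C, ranges that overlapped only at their ends. Gm21283 ran from 1.67 through 2.08 to 3.01 CPM at 16 °C and from 2.65 through 3.94 to 5.83 CPM at 37 °C, with a small overlap. 2310043M15Rik ran from 20.9 through 24.8 to 28.4 CPM at 16 °C and from 7.72 through 14.3 to 16.9 CPM at 37 °C, without overlap.

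With the time points adjusted for, edgeR passed 3 of the 6 genes tested at an adjusted p of 0.05, 2 higher and 1 lower, in a comparison where 63.4% of 11788 genes passed (32% higher and 31.4% lower). The log2 fold change at 37 °C against 16 °C was 0.67 for Csrnp3 (SE 0.15, adjusted p 0.000323), 1.10 for Gm21283 (SE 0.23, adjusted p 0.000121) and -0.70 for 2310043M15Rik (SE 0.12, adjusted p 1.0e-05). Zfp36l3 had 0.67 (SE 0.30, edgeR adjusted p 0.0547) and passed in a fit blocked on replicate number (0.71, edgeR adjusted p 0.0422), and without replicate 1 of 16 °C for 30 min (0.88, edgeR adjusted p 0.0123) or of 37 °C for 30 min (0.70, edgeR adjusted p 0.0463). G530011O06Rik had 0.17 (95% interval -0.22 to 0.55), Mid1 had -0.11 (-0.29 to 0.07), and Xlr4a was below the filter on low counts. The median over the 6 genes was 0.42, beside 0.00 over all genes. Of the related genes fixed for this report, Zfp36, Zfp36l1 and Zfp36l2 rose by 0.90, 0.62 and 0.90 on the log2 scale (edgeR adjusted p 0.0204, 7.39e-08 and 9.53e-07), Csrnp1 fell by 0.89 (8.61e-08) and Csrnp2 had 0.02 (0.834).

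The share of Rn45s moved with temperature, from 11.8% to 25.1% of counts at 16 °C to 33.0% to 40.7% at 37 °C. With Rn45s kept in the totals the median of all genes moved to -0.45, the share of calls that were higher went from 50.4% to 16.7%, and Csrnp3 no longer passed (0.21, edgeR adjusted p 0.218), while Mid1 did with -0.55 (7.32e-07). 2310043M15Rik and Gm21283 kept their direction and their call, and G530011O06Rik turned to -0.29 without passing.

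**Figure D3:**
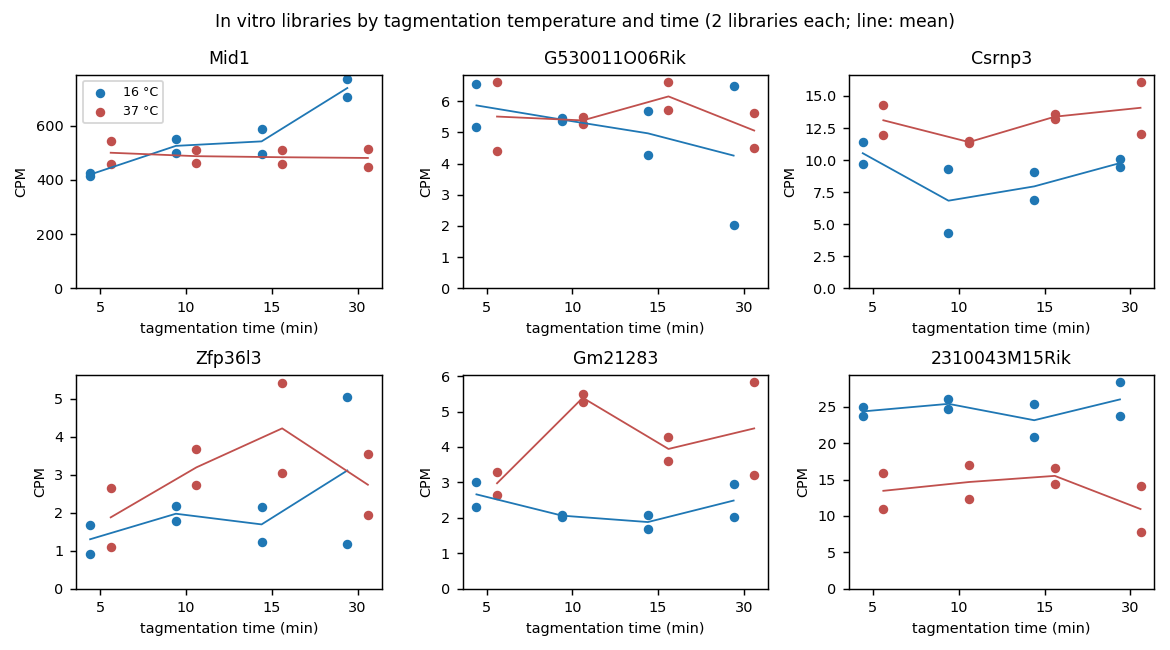
CPM of 6 of the 7 genes in the in vitro libraries by tagmentation time (5, 10, 15 and 30 min, evenly spaced) and temperature (16 °C blue, 37 °C red). Points are single libraries, 2 per condition, and lines join their means. 2310043M15Rik is lower at 37 °C at every time, with 7.72 to 16.9 CPM against 20.9 to 28.4 CPM, and Mid1 is highest at 16 °C and 30 min (772 and 708 CPM).

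Mid1 also varied with time at 16 °C. It was at 415 and 425 CPM after 5 min, 552 and 500 CPM after 10 min, 588 and 497 CPM after 15 min and 772 and 708 CPM after 30 min, while at 37 °C all 8 libraries lay between 446 and 544 CPM. The difference of the time courses was not tested.

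The SET-seq libraries labelled with an H3K27me3 or an H3K4me3 antibody were compared next, because the antibody acts on the nuclei and the expression library comes from the separated cytoplasm. None of the genes that could be tested differed at the threshold. 2310043M15Rik was at 15.9 to 63.4 CPM (median 47.0) in the 6 H3K27me3 libraries and at 19.7 to 77.8 CPM (median 43.5) in the 6 H3K4me3 libraries. Xlr4a was at 3.64 to 10.2 CPM (median 6.19) and 3.28 to 9.74 CPM (median 6.66), and the ranges overlapped for both. With cell number as a factor, edgeR tested 4 of the 7 genes and called 0 of them, beside 0% of 11616 genes, and DESeq2 called 0 of the 7 as well. At an unadjusted p below 0.05 the count was 361 over all genes and 0 among these.

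The intervals set what could have been seen. The log2 difference, H3K27me3 against H3K4me3, was 0.05 for 2310043M15Rik (95% interval -0.39 to 0.49), -0.03 for Xlr4a (-0.87 to 0.81), -0.12 for Gm21283 (-1.13 to 0.89) and 0.07 for Csrnp3 (-1.83 to 1.97), all with an edgeR adjusted p of 0.996. Mid1, G530011O06Rik and Zfp36l3 were too low to test there by edgeR, with Mid1 at 0 to 3.28 CPM in the 12 libraries. Zfp36l3 was at 0 to 1.62 CPM (median 0.316) with H3K27me3 and at 0 to 4.06 CPM (median 1.40) with H3K4me3, ranges that overlapped. Of the related genes, 9 could be tested and 0 were called, Xlr3a with -0.11 (-0.50 to 0.28) and Xlr3b with -0.37 (-0.92 to 0.17) among them.

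The Aebp2 KO libraries allowed the clones to be compared with each other. Mid1, G530011O06Rik and Csrnp3 were all higher in KO1 than in KO2, with no overlap of the 2 libraries each given above, and Zfp36l3 overlapped.

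By edgeR, 3 of the 4 genes tested passed, all higher in KO1. In this comparison 10% of 8551 genes passed, 5.2% as higher and 4.83% as lower in KO1. G530011O06Rik met the filter on low counts only through KO1 (20.6 and 19.2 CPM, against 4.97 and 5.34 CPM in KO2). Its direction was therefore partly set by the filter, and nothing is read from its call. The log2 fold change was 0.71 for Mid1 (SE 0.18, edgeR adjusted p 0.00782), 1.83 for G530011O06Rik (SE 0.58, edgeR adjusted p 0.0411) and 1.07 for Csrnp3 (SE 0.28, edgeR adjusted p 0.0130). Zfp36l3 had 0.20 (95% interval -0.96 to 1.36). Xlr4a, Gm21283 and 2310043M15Rik were below the filter. The calls were not stable: DESeq2 called 0 of the 7 genes, with 284 calls over all genes against 858 by edgeR, leaving out either KO1 library gave 0 calls and leaving out either KO2 library gave 2, losing G530011O06Rik. With the replicate number as a block 2 remained past the threshold, G530011O06Rik falling out with an adjusted p of 0.0625. Aebp2 itself was lower in KO1 by edgeR, with a log2 fold change of -1.46 (SE 0.39, adjusted p 0.0130), and of 4 related genes tested Csrnp1 fell by 0.77 (adjusted p 0.0363) and the other 3 were not called.

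**Figure D4:**
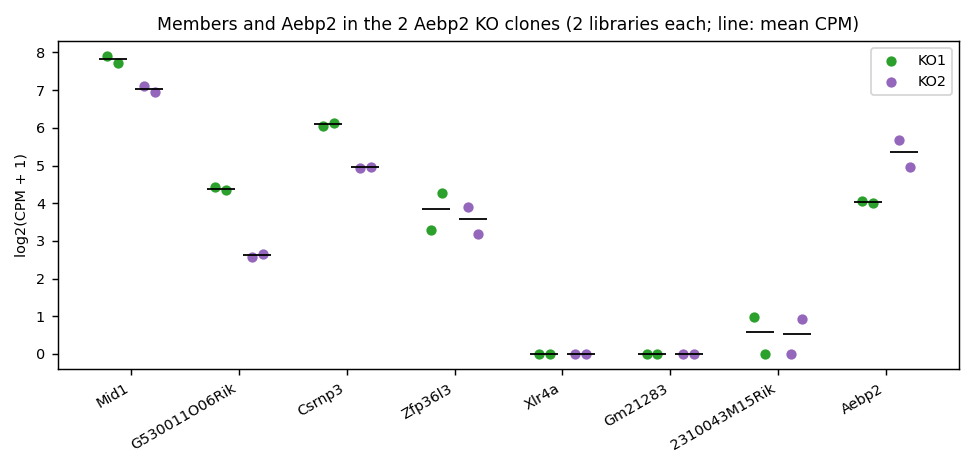
Level of the 7 genes and Aebp2 as log2(CPM + 1) in the 2 libraries each of Aebp2 KO1 (green) and KO2 (purple), with a line at the mean CPM. Mid1, G530011O06Rik and Csrnp3 lie higher in both KO1 libraries, Aebp2 lies lower, and Xlr4a and Gm21283 are at 0 in all 4.

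In single cells next to Wnt3a beads the 7 genes were rarely read. The H3K27me3 matrix held 384 cells from 10 experiments and the H3K4me3 matrix 368 cells from 6. Barcodes were reused, with 80 of 96 barcodes in several H3K27me3 experiments and 64 of 80 in several H3K4me3 experiments, so cells were kept apart by experiment. Mid1 had reads in 20 H3K27me3 cells and 30 H3K4me3 cells, Csrnp3 in 39 and 24, and 2310043M15Rik in 3 and 21. G530011O06Rik had 1 read, Xlr4a and Gm21283 had 1 read each, and Zfp36l3 had no row in either matrix. Hprt, for comparison, had reads in 87 and 150 cells. It was at 0.563, 0 and 0.182 CPM in H3K27me3 experiments 8, 9 and 10 and at 0.412 CPM in H3K4me3 experiment 1. In H3K27me3 experiments 1 and 3, 97.4% and 97.0% of its counts were in 1 cell.

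Levels were summed over all cells of an experiment, without a filter on genes per cell. Mid1 was at 0 to 76.8 CPM (median 0.258) in the H3K27me3 experiments. In the H3K4me3 experiments it was at 0.165 to 13.9 CPM (median 6.88). These values rested on single cells: in H3K27me3 experiment 3 a single cell gave 97.3% of the 1034 Mid1 counts, and in H3K4me3 experiment 3 one gave 90.7% of 151. The same held for Csrnp3, at 31.9 CPM in H3K27me3 experiment 6, where 1 cell gave 99.0% of the counts. 2310043M15Rik was spread over more cells in one case, with reads in 19 of 64 cells (29.7%, exact binomial interval 18.9 to 42.4%) of H3K4me3 experiment 6. Only 22 of these 64 cells passed the filter on genes per cell. Counts per cell were not collapsed by molecule here, so 1 cell can hold many copies of 1 cDNA.

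**Figure D5:**
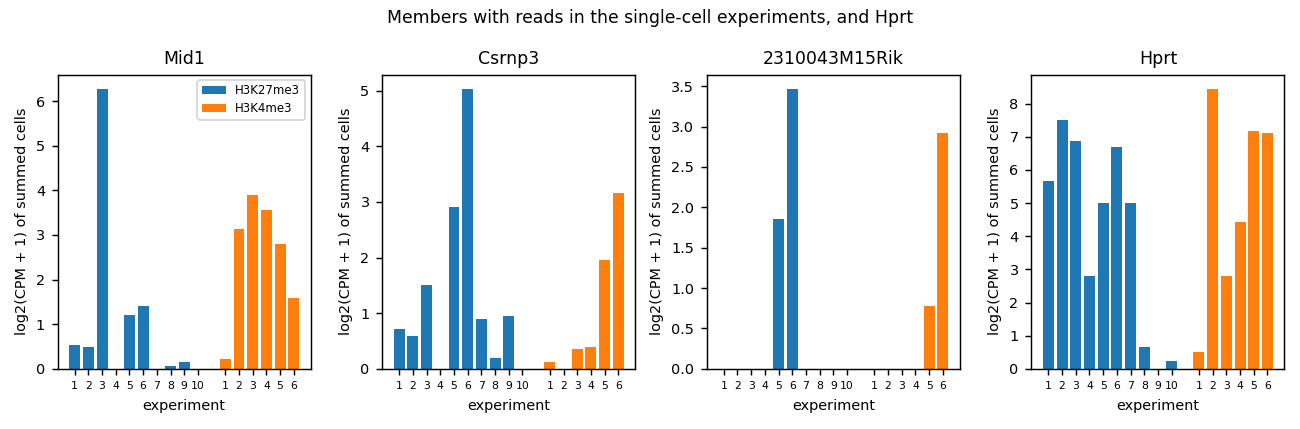
Level of Mid1, Csrnp3, 2310043M15Rik and Hprt in each single-cell experiment, as log2(CPM + 1) of the counts summed over its cells. All cells were summed, also those outside the filter on genes per cell. The 10 H3K27me3 experiments are in blue and the 6 H3K4me3 experiments in orange. Mid1 is highest in H3K27me3 experiment 3 (76.8 CPM) and Csrnp3 and 2310043M15Rik in H3K27me3 experiment 6 (31.9 and 10.1 CPM). Hprt runs from 0 to 351 CPM and is under 1 CPM in H3K27me3 experiments 8, 9 and 10 and in H3K4me3 experiment 1.

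Cells listed by the study as proximal to the bead or distal from it did not differ at the threshold for any gene that could be tested. Over 14 experiments with both positions, Mid1 was higher proximally in 4 and distally in 7, Csrnp3 in 4 and 6, and 2310043M15Rik in 3 and 1, the rest being at 0 on both sides. With the experiment as a block, edgeR tested 3 of the 7 and called 0, beside 0% of 13086 genes, and DESeq2 called 0 of the 7 and 62 genes in all. The log2 differences, proximal against distal, were -0.77 for Mid1 (95% interval -3.70 to 2.16), -0.72 for Csrnp3 (-2.96 to 1.51) and 1.95 for 2310043M15Rik (-0.58 to 4.48). These intervals reach large changes in both directions. Single cells weighed heavily here. In H3K27me3 experiment 6, 1 cell gave 754 of 759 distal Csrnp3 counts, and 1 cell gave 240 of 241 proximal 2310043M15Rik counts. In H3K4me3 experiment 3, 1 cell gave 137 of 144 distal Mid1 counts.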

How the data were processed

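Expression was taken from raw read counts per gene and per cell as deposited by the authors. Per the labels and methods, reads were trimmed with Trim Galore 0.6.4, aligned to mm9 with STAR 2.5.4b and counted with featureCounts 2.0.0 (2.0.1 in the Aebp2 KO headers), without strand, and the single-cell counts came from zUMIs. Histone libraries were not used. Members and gene lists were chosen with earlier results of these data known. Groups followed the labels. CPM and tests left out Rn45s, and 0 columns of other samples were found. Tests used edgeR 4.0.16 (TMM, filterByExpr, quasi-likelihood, Benjamini-Hochberg over all genes tested), with SE as the log2 fold change over the root of F, and DESeq2 1.42.0 as an alternative. Labels give no separate cultures, so p-values measure the spread between libraries. To compare positions, single cells with more than 1000 and fewer than 5000 genes were summed per experiment and position, at least 3 cells each. Positions came from the study's list of cells, and no doublet caller was run. Single-cell levels per experiment were summed over all cells unless stated otherwise. All 7 genes, their 3 most alike genes, neighbours and a family list are named, except 1 gene that is not reported here. The 27 library pairs were checked, and 0 agreed within sampling noise. On simulated counts with 200 genes changed 4-fold and a dispersion, the spread beyond counting error, fixed at 0.1, recovery was 96.5% for temperature and 95% for antibody. It was 40% for the KO clones and 92.5% for position. The spread of the data themselves was not used, so these shares do not say how often such changes would be found in them. Deviations of same-numbered libraries correlated above 0.1 in 4 of 28 temperature pairs (r -0.06 to 0.29) and 0 of 15 antibody pairs, and at -0.11 for KO, so the numbers were not taken to pair libraries.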

Additional observations from a re-analysis of the deposited data

Results flagged for a closer look

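In the single-cell experiments 8 of 9 gene and antibody sets with any reads had a highest experiment far from the others. Chance gives about 1 in 20 for values with a continuous spread, which does not apply to such sparse counts, since 1 read among experiments at 0 always stands apart in this way. These levels hold all cells, without a filter on genes per cell. Mid1 in H3K27me3 experiment 3 was at 76.8 CPM, with the next experiment at 1.67 CPM and 97.3% of its counts in 1 cell. That cell lay outside the filter, and over the cells that passed Mid1 was at 2.79 CPM. Csrnp3 was at 31.9 CPM in H3K27me3 experiment 6, with 99.0% of its counts in 1 cell, and at 7.94 CPM in H3K4me3 experiment 6, with 78% in 1 cell. 2310043M15Rik was at 10.1 CPM in H3K27me3 experiment 6, with 99.6% of its counts in 1 cell, and at 6.56 CPM in H3K4me3 experiment 6, spread over 19 cells with 44.4% in the highest. In H3K4me3 experiment 6, 22 of 64 cells passed the filter. Over these Csrnp3 was at 1.95 CPM and 2310043M15Rik at 13.7 CPM. A single read set apart G530011O06Rik in H3K27me3 experiment 3 (0.0742 CPM), and also Xlr4a and Gm21283 in H3K4me3 experiment 6 (0.0529 CPM each).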

How the results depend on the processing

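Of 291 member fold changes recomputed under alternatives 250 kept direction and side of the threshold, 14 fell below it, 6 passed it and 21 turned direction, and of 82 counts of members 78 stayed within 1.5 times. The cause of the shifts was not tested. For KO1 against KO2 the 3 calls became 0 with DESeq2, 0 to 2 with each library left out, 2 with Rn45s kept and 2 with a replicate block. Same-numbered KO libraries correlated at -0.11, and a crossed block chosen after seeing the data gave 3 calls, with 1431 genes called in all against 639 with the labelled block. The replicate block added Zfp36l3 (0.71) to the temperature calls and changed no other call there or between antibodies. Members not overlapping between ligation-based and in vitro libraries fell from 4 to 2 with TMM. Turned values, none past the threshold, were G530011O06Rik at 37 °C (-0.29, Rn45s kept), Csrnp3 between antibodies (-0.10 with the replicate block), Mid1 by position (0.84, all cells) and, with single libraries left out, Csrnp3 (-0.38 to 0.89), 2310043M15Rik (-0.22 to 0.18), Xlr4a (-0.15 to 0.14) and Gm21283 (-0.37 to 0.14) between antibodies and Zfp36l3 between clones (-0.40 to 0.64). With Rn45s kept, the median CPM in vitro was 360 for Mid1 and 7.49 for Csrnp3, in Aebp2 KO 85.2 for Mid1, 5.75 for G530011O06Rik, 21.9 for Csrnp3 and 5.49 for Zfp36l3, and in the ligation-based libraries 1.55 for Zfp36l3. With TMM the ligation-based medians were 2.99 for Mid1, 7.12 for Csrnp3, 1.30 for Zfp36l3, 6.06 for Gm21283 and 33.8 for 2310043M15Rik. Of the 3 most alike genes, Spearman's correlation and the 54 single libraries kept 0 and 2 for Mid1, 1 and 2 for G530011O06Rik, 0 and 1 for Csrnp3, 2 and 0 for Zfp36l3, 1 and 2 for Xlr4a, 1 and 0 for Gm21283 and 0 and 1 for 2310043M15Rik. Depth limits low genes in the shallowest libraries, where 3 counts are 15.9 CPM in SET-seq, 9.28 CPM in vitro and 3.21 CPM in Aebp2 KO.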

Other observations

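Other cell type markers were read in the same libraries, and their part in the levels of the 7 genes was not tested. The summed level of 5 2-cell-like markers was 163 to 352 CPM in the 4 Aebp2 KO libraries and 0 to 67.1 CPM (median 6.43) in vitro. It was 4.86 to 35.6 CPM (median 17) in SET-seq and 6.82 and 7.33 CPM in the ligation-based libraries. Zscan4c (98.8 to 194 CPM) and Zscan4d (63.2 to 155 CPM) carried the Aebp2 KO sum. There Zfp352 (0 to 3.98 CPM) and Usp17lc (0 to 7.85 CPM) were not set apart, with Zfp352 up to 17.9 CPM in SET-seq and Usp17lc up to 12.3 CPM in vitro. Tcstv1 was at 0 throughout, but it lies on a random chromosome, which the study's methods left out of the reference. Primed epiblast markers, 4 in number, summed to 46.3 to 111 CPM in vitro, 2.37 to 63.7 CPM in SET-seq, 22.4 and 25.7 CPM in ligation-based and 16.9 to 41.2 CPM in Aebp2 KO libraries, with Fgf5 at a median of 0 outside the KO libraries. T carried most of the in vitro sum (46.3 to 111 CPM, against 0 to 46.0 CPM in SET-seq and 0 to 9.81 CPM in Aebp2 KO), whereas Otx2 had a median of 3.51 CPM in vitro and 25.2 CPM in Aebp2 KO. Fibroblast markers (5) summed to at most 35.7 CPM in any library and primitive endoderm markers (5) to at most 37.1 CPM. Trophoblast markers (5) summed to a median of 19.4 CPM in vitro, 13.4 CPM in SET-seq, 50.7 CPM in ligation-based and 47.4 CPM in Aebp2 KO libraries, with Elf5 at a median of 0 in all but the ligation-based group. The 5 Y-linked genes measured summed to a median of 22.1 CPM in vitro, 80.3 CPM in SET-seq, 156 CPM in ligation-based and 57.3 CPM in Aebp2 KO libraries.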
